A study of Mus musculus with 12 samples.

Results

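RNA-seq of adult mouse livers that had lost the nuclear receptor HNF4A (*Hnf4a* cKO livers) was set against RNA-seq of control livers, gene by gene. The deposited liver table holds 24340 gene entries, and an entry was kept when its status was OK and its level was 1 FPKM or more in at least 1 group. FPKM counts the sequenced fragments of a gene relative to the length of its exons and to the size of the library, so it is a relative level. This left 11262 of the 24340 entries, of which 16 name several genes and 11212 were matched by symbol to RefSeq. Another 946 entries with status OK stayed under 1 FPKM in both groups. The entries nearest the limit were *Spice1* inside it, at 0.923 FPKM in controls and 1.0007 in cKO livers, and *Intu* outside it, at 0.9995 and 0.891.

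The study examined how HNF4A sets up histone marks at enhancers, in livers and in 3T3 fibroblasts. The cKO mice carried *Hnf4a* fl/fl alleles and *Alb-CreERT2*, a Cre recombinase driven by the albumin promoter that tamoxifen switches on, and received tamoxifen every other day until livers were taken on day 7. Controls were *Hnf4a* fl/fl and Cre-negative without tamoxifen by the methods, of the same genotype without tamoxifen by a supplementary legend, and wild type by the sample labels. All were adults, with no exact age given for these mice, and 3 livers per group were sequenced. Because the groups differ in tamoxifen and, by the methods, in Cre as well as in *Hnf4a*, effects of these cannot be told apart. The albumin promoter restricts deletion to hepatocytes, but the RNA came from pulverized livers and so also holds other cells, although the labels name hepatocytes. In such bulk samples, fewer cells of a type and less RNA per cell cannot be told apart.

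The authors' table gives 1 FPKM per gene and group, pooled over the 3 livers, and none for a single liver. No SD, interval or test across livers could therefore be computed, and a difference between groups has no replicate check here. Below, a gene is called lower when its log2 ratio of cKO over control FPKM is −1 or less and higher when it is 1 or more, a 2-fold difference, which describes these pooled values and is not a test. The read depth behind the values is unknown.

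HNF4A is a nuclear receptor that binds DNA as a homodimer and activates many genes of the differentiated hepatocyte. Its known targets include apolipoproteins, clotting factors, cytochromes P450 and enzymes of bile acid and amino acid metabolism. The hepatocyte is the cell that makes most plasma proteins, clears drugs and steroids, and handles the glucose, lipid and nitrogen traffic of the body.

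The level of *Hnf4a* itself was 275 FPKM in controls against 144 in cKO livers (log2 ratio −0.93), and its rank by FPKM went from 335 to 491. It lies at chr2:163506811-163572907 (GRCm38.p6, RefSeq). A whole-gene FPKM also counts exons outside the floxed part, so this value does not measure how much intact *Hnf4a* RNA remained.

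Of the 11237 kept entries above 0 FPKM in both groups, 1247 (11.1%) were lower and 909 (8.09%) were higher, while 9081 lay between. The median log2 ratio was −0.0089 and the middle 50% ran from −0.42 to 0.38. A typical gene thus had nearly the same listed FPKM in both groups, and the calls sit in the tails. The balance of the calls depends on the scaling, since the FPKM of all entries sum to 601955 in controls and 458704 in cKO livers. With both sums set equal, every log2 ratio moves up by 0.39, and 816 genes were lower and 1751 higher. With the ratios centred on cytosolic ribosomal proteins they move down by 0.45, and 2304 were lower and 523 higher. With the sums set equal outside the 100 highest genes of either group, a choice made after the data were seen, they move up by 0.28, and 910 were lower and 1427 higher. Ratios below are on the scale of the deposited FPKM, and directions are stated for families whose median kept its sign on all 5 scales.

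**Figure D1:**
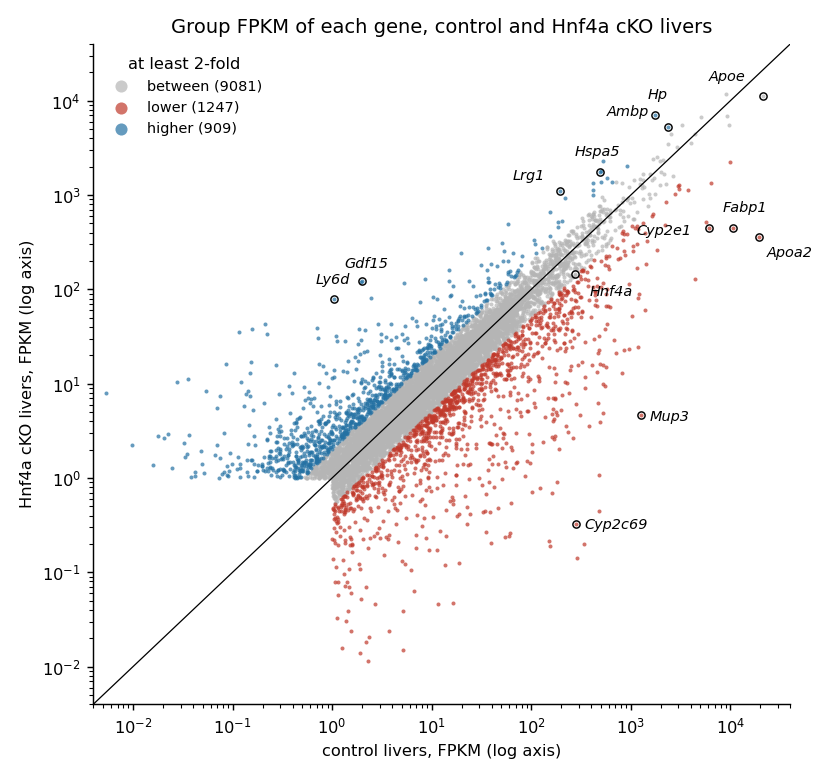
FPKM of each gene in control livers (x, log axis) and *Hnf4a* cKO livers (y, log axis), 1 pooled value per group, with the 1247 genes lower by at least 2-fold in red, the 909 higher in blue, the 9081 between in grey, and the diagonal marking equal values. Red points reach far below the diagonal at high control FPKM (*Apoa2*, *Fabp1*, *Mup3*), and most blue points lie at low control FPKM, where genes enter through 1 FPKM or more in cKO livers.

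The difference between groups varied with the abundance of a gene in control livers. At 1000 FPKM or more in controls, 78 genes had a ratio, of which 35 (44.9%) were lower and 2 higher, and the median log2 ratio was −0.87. Among 804 genes at 100 to 1000 FPKM, 265 were lower (33.0%), 21 were higher and the median was −0.37. The share that was lower was smaller in the classes beneath, with 531 of 4286 (12.4%) at 10 to 100 FPKM and 416 of 5514 (7.54%) at 1 to 10 FPKM. The medians of those classes were −0.10 and 0.04. The class under 1 FPKM in controls, with 378 of 555 higher and 0 lower, is fixed by the filter, since its genes were kept only for reaching 1 FPKM in cKO livers.

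Sorting by the control value favours genes that were high in that group, so the same genes were also sorted by the cKO value and by the mean of both. By cKO FPKM, the class at 1000 or more held 55 genes with a median of 0.18, of which 7 were lower and 12 higher, and the class at 100 to 1000 had 65 of 637 lower (10.2%) and 55 higher (8.63%) with a median of 0.11. By the mean of both groups, that class held 64 genes with a median of −0.16, of which 17 were lower and 8 higher, and the class at 100 to 1000 had 204 of 759 lower (26.9%) and 37 higher (4.87%) with a median of −0.20. Lower genes therefore outnumbered higher ones in both classes by control FPKM and by the mean, whereas by cKO FPKM the counts were close at 100 to 1000 and higher genes were more numerous at 1000 or more. The median of the top control class stayed below 0 on all 5 scales, from −1.31 to −0.48, whereas that of the 100 to 1000 class was 0.03 with equal sums. For comparison, the 65 genes at 1000 FPKM or more in control 3T3 cells had a median of −0.53 in 3T3 cells with ectopic HNF4A (3 cultures per group, also 1 pooled value), with 8 lower and 0 higher, so a negative median in the top class is also listed there.

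**Figure D2:**
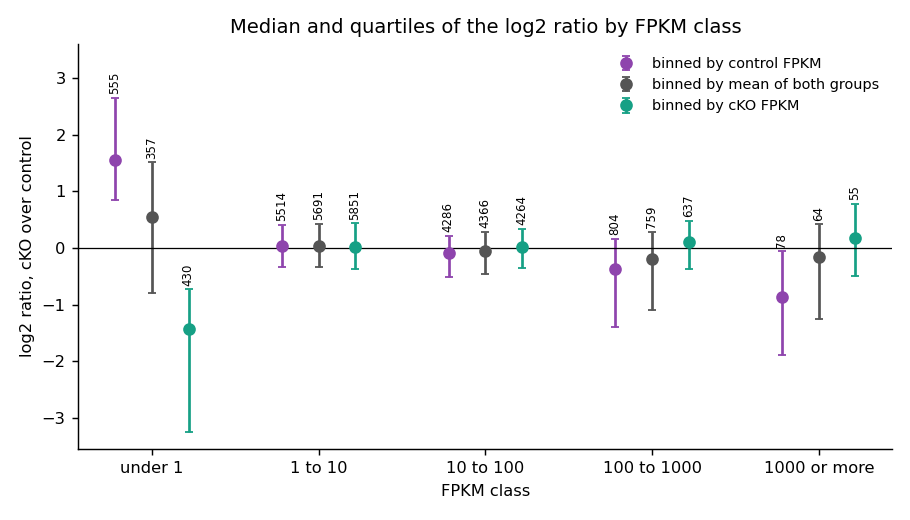
Log2 ratio of cKO over control FPKM (y) by FPKM class (x), as the median (point) and quartiles (bars) over genes, with the number of genes above each bar and classes set by control FPKM, by the mean of both groups or by cKO FPKM. By control FPKM the median went from 0.04 at 1 to 10 to −0.87 at 1000 or more, and by cKO FPKM the top class had a median of 0.18.

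Abundance classes were also left and entered. Of 79 genes at 1000 FPKM or more in controls, 42 stayed in that class, 30 were at 100 to 1000 in cKO livers, 5 at 10 to 100, 1 at 1 to 10 and 1 under 1. From the class at 100 to 1000, 13 genes entered the top class and 504 of 804 stayed, while 240 were at 10 to 100, 37 at 1 to 10 and 10 under 1. The gene in the lowest class was *Snord49b*, a small nucleolar RNA listed at 1091 FPKM in controls and at 0 in cKO livers. Very short RNAs are poorly measured by FPKM.

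Of the 20 highest genes of each group 10 were shared, and the most abundant secreted proteins changed places. *Apoe*, which clears lipoprotein remnants, was the highest gene in controls at 21332 FPKM and had 11283 in cKO livers. *Apoa2*, a structural protein of high-density lipoprotein, stood at 19439.8 and 358, and its rank went from 2 to 187. *Apoa1*, the main protein of the same particle, stood at 9012 and 11880 and became the highest gene of cKO livers. The 2 chief apolipoproteins of one lipoprotein particle thus parted, by log2 ratios of −5.76 and 0.40.

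Other abundant genes with large losses of FPKM served lipid, iron and drug handling. *Fabp1*, the fatty acid carrier of the hepatocyte cytosol, stood at 10744 FPKM in controls and 447 in cKO livers. *Trf*, the iron carrier transferrin, stood at 10037 and 2224, and *Ttr*, the thyroid hormone carrier transthyretin, at 6339 and 1345. *Cyp2e1*, which oxidises ethanol and small solvents, stood at 6043 and 449, and *Apoc3*, an inhibitor of triglyceride clearance, at 5658 and 523. *Serpina3k*, a protease inhibitor, had the lowest ratio of these, at 4401 and 130 FPKM. Losses were concentrated, with 21.1% of all FPKM lost in 4 genes (*Apoa2*, *Fabp1*, *Apoe* and *Trf*), 33.0% in 10 and 63.0% in 100.

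On the scale of the deposited FPKM, the gains among abundant genes were fewer and smaller. *Hp*, which encodes haptoglobin, the plasma scavenger of free haemoglobin, stood at 1747 FPKM in controls and 7016 in cKO livers, and its rank went from 37 to 3. *Ambp*, the precursor of alpha-1-microglobulin and bikunin, stood at 2390.1 and 5321. *Fgb*, the beta chain of fibrinogen, stood at 3290.2 and 5472, and *C3*, the central complement component, at 2521 and 4451, both below a 2-fold difference. *Igfbp2*, which binds insulin-like growth factors, had 532 and 2321 FPKM. *Hspa5*, the chaperone BiP of the endoplasmic reticulum, had 491 and 1747. All gains sum to 81325 FPKM against 224390 of losses. The 4, 10 and 100 largest gains hold 16.3%, 27.5% and 58.9% of the summed gains, so gains were nearly as concentrated as losses. The balance of gains and losses depends on the scaling, since the kept entries sum to 600587 FPKM in controls and 457521 in cKO livers. With these sums set equal, gains and losses would be equal by construction. The entry of *Alb* is listed at 0 in both groups with the status LOWDATA, meaning that no level was estimated, so albumin, a chief product of the liver, has no level here and is missing from all sums.

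**Figure D3:**
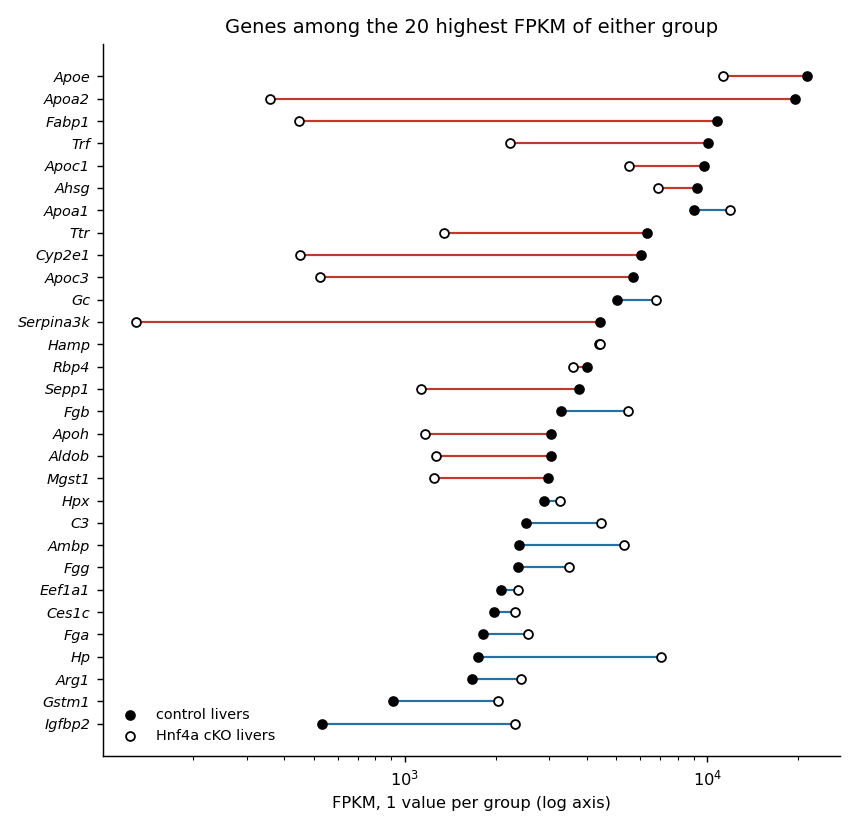
FPKM (x, log axis) of the genes that are among the 20 highest of control or cKO livers, ordered by control FPKM, with filled circles for control and open circles for cKO livers, 1 pooled value per group, joined by red lines where cKO is below control and blue lines where it is above. *Apoa2* and *Serpina3k* have the longest red lines, from 19439.8 to 358 and from 4401 to 130, and *Hp* and *Igfbp2* the longest blue ones.

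Gene families were described by the share of their kept members that was lower or higher, to be read against 11.1% and 8.09% of all genes, and by their median log2 ratio against −0.0089. A member under 1 FPKM in controls was kept only through its cKO value and so could not be lower. Families whose copies lie side by side in the genome share reads, so the split of FPKM among major urinary proteins and among Cyp2a, Cyp2b, Cyp2c, Cyp2d, Cyp3a, Cyp4a, Sult2a, Ugt2b, Ces and Serpina copies is uncertain. Their sums are less affected. Of 77 families, the medians of 37 had 1 sign on all 5 scales.

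The lowest medians belonged to secreted urinary proteins and to enzymes that make drugs and steroids soluble. Major urinary proteins, lipocalins that carry pheromones in mouse urine, had 12 kept members, of which 7 had a ratio, all lower, with a median of −7.87, and 5 (*Mup1*, *Mup5*, *Mup7*, *Mup14* and *Mup19*) were listed at 0 in cKO livers. *Mup3* stood at 1265 FPKM in controls and 4.62 in cKO livers, *Mup9* at 338 and 0.201, and *Mup10* at 61.1 and 0.259. An entry shared by Gm2083 and *Mup19* stood at 155 and 0.188. As a sum the 12 members went from 1767 to 6.62 FPKM, so little of the FPKM listed for this family in controls was listed in cKO livers.

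Cytochromes P450 of families 1 to 4, the haem enzymes that oxidise drugs, steroids and fatty acids, were lower in 43 of 53 members and higher in 2, with a median of −3.73, and their FPKM summed to 19054 in controls and 2164 in cKO livers. *Cyp2c69* had the lowest ratio of them, at 279.9 FPKM in controls and 0.329 in cKO livers, and *Cyp3a16* and *Cyp3a44* stood at 180.4 and 0.904 and at 122 and 0.777. *Cyp2c37* stood at 496 and 3.92, *Cyp2c54* at 377 and 3.57, and *Cyp2d13* at 85.8 and 1.06. The 2 higher members were low in both groups: *Cyp4f16* stood at 2.04 and 5.22 and *Cyp4a12b*, kept only through the cKO value, at 0.0098 and 2.25. Among the other P450 families, lower in 4 of 10 members, the lowest were *Cyp7a1* and *Cyp8b1*, which belong to bile acid synthesis.

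Conjugating enzymes followed. Sulfotransferases of small molecules were lower in 12 of 15 members (median −4.65), among them *Sult2a8* at 287 FPKM in controls and 0.141 in cKO livers and *Sult2a1*, which sulfates bile acids and steroids, at 406 and 15.6. *Sult1e1*, which inactivates oestrogens, was the 1 higher member, at 8.47 and 128. UDP-glucuronosyltransferases were lower in 9 of 14 (median −3.12), with *Ugt2b1* at 221 and 3.52 and *Ugt3a2* at 172 and 2.81. *Ugt1a1*, which conjugates bilirubin, stood apart at 403 and 556. Carboxylesterases, which split esters of drugs and lipids, were lower in 8 of 13 (median −2.26) and split into a low set and a set between: *Ces3a* stood at 482 and 0.446 and *Ces3b* at 151 and 0.215, while *Ces1c* stood at 1966 and 2319.8 and *Ces1d* at 530.0 and 666.

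Glutathione S-transferases did not share this pattern. Of 21 members 7 were lower and 6 higher, and their sum was 7313 FPKM in controls and 7467 in cKO livers. *Gstm2* stood at 58.2 and 493 and *Gstp1* at 219 and 920.3, while *Gstt3* stood at 77.5 and 4.99. The family median of −0.37 was 0.02 with equal sums, so no direction is stated. Aldo-keto reductases were also mixed, with 3 of 14 lower and 4 higher, among them *Akr1b7* at 2.47 and 80.4 FPKM.

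**Figure D4:**
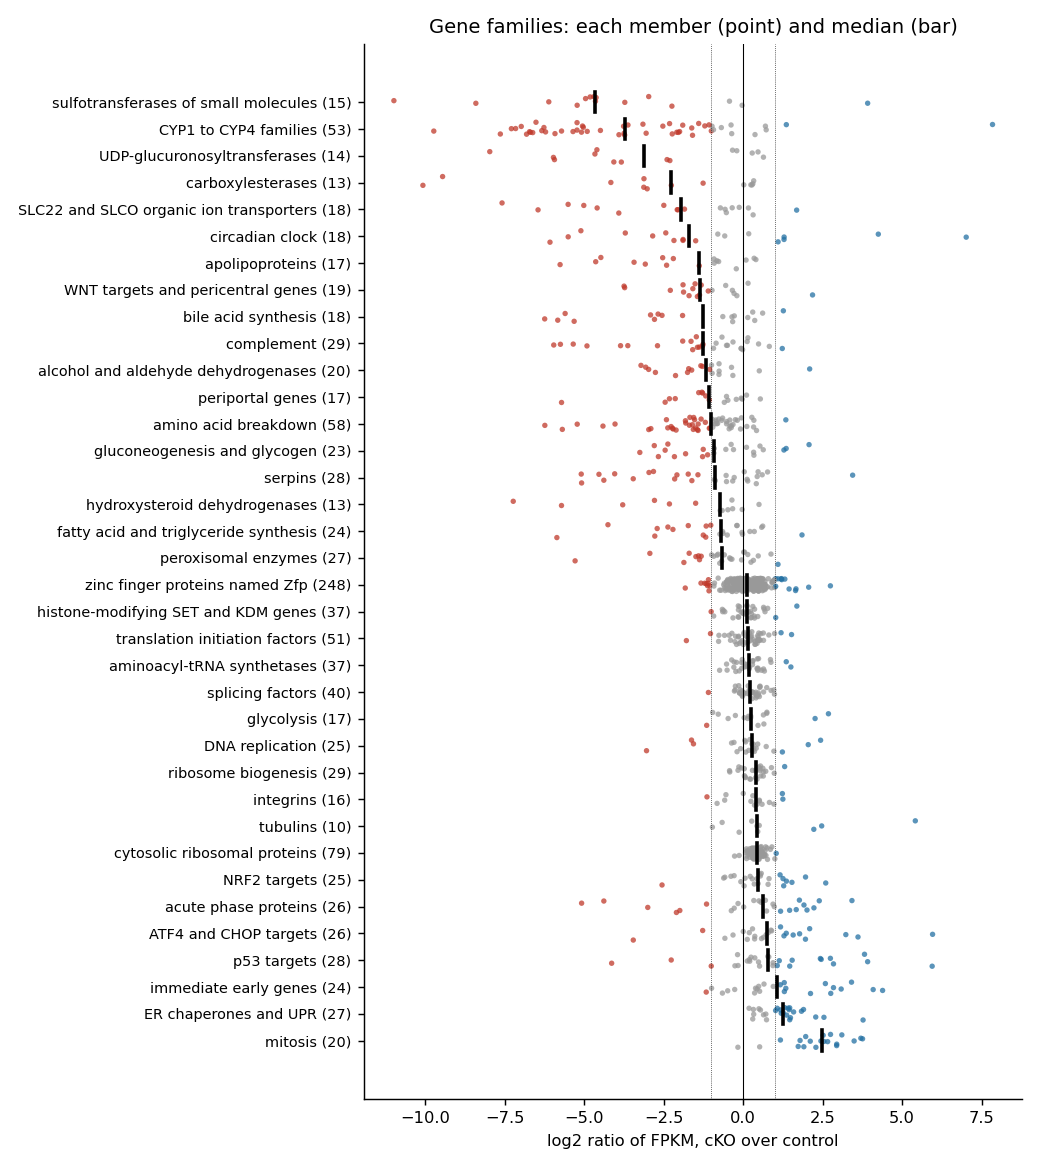
Log2 ratio of cKO over control FPKM (x) for each member (point) of the 18 lowest and the 18 highest families by median, among families with 10 or more members that have a ratio, whose number stands in brackets. Black bars are family medians, dotted lines mark a 2-fold difference, red points are lower and blue points higher, and the sulfotransferases and CYP families lie furthest left while ER chaperones and mitosis genes lie furthest right.

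Some lower members lay next to each other on a chromosome, mostly as tandem copies. By the order of the loci in the table, 17 runs of at least 4 adjacent lower members held 97 of the 1247 lower genes (7.78%), against 2 runs with 8 of the 909 higher genes (0.880%). The longest run held 11 Cyp2c genes at chr19:39287085-40187286 (mm10), whose FPKM summed to 4069 in controls and 227 in cKO livers. Runs of 8 covered Sult2a genes on chromosome 7, with 1017 and 27.3 FPKM, and Mup entries on chromosome 4, with 1896 and 6.81. Runs of 7 covered Cyp3a genes on chromosome 5, with 1763 and 313, and *Cyp2b13* to *Cyp2f2* on chromosome 7, with 3420.1 and 591. Neighbours that are copies of one gene share reads and are not independent of one another. Of the shorter runs, 1 joined *Cxcl9*, *Cxcl10* and *Cxcl11*, chemokines that draw T cells, with *Art3*, and summed to only 10.6 and 2.39 FPKM. The 2 higher runs were *Grhl1* to *Rrm2* on chromosome 12 and *S100a8*, *S100a9*, *Sprr1a* and *S100a11* on chromosome 3.

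**Figure D5:**
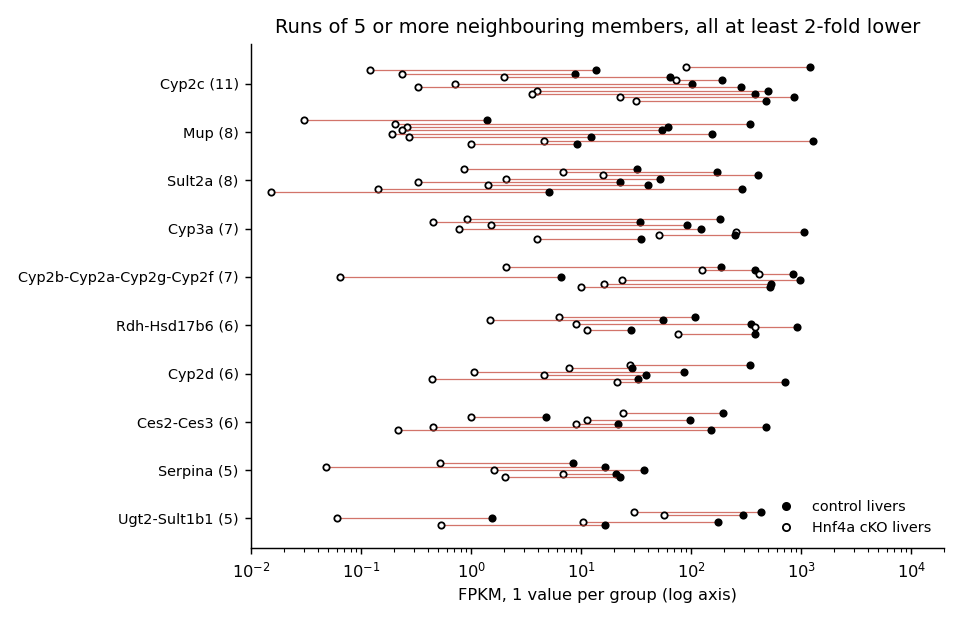
FPKM (x, log axis) of each member in the 10 runs of 5 or more neighbouring lower members, 1 line per member from control (filled) to cKO livers (open), with the number of members in brackets. All lines run to the left by at least 2-fold, and those of the Mup run reach from 1265 (*Mup3*) to 4.62 and from 338 (*Mup9*) to 0.201.

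The promoters of the kept genes were searched for 2 words that HNF4 proteins are known to bind, CAAAGTCCA and CAAAGGTCA, on both strands of the 250 bases before and 50 after each RefSeq start (GRCm38.p6). Only genes with a single listed promoter were used, 7169 of the kept genes. CAAAGTCCA was in 0.486% of all 22862 such promoters, in 17 of 748 lower genes (2.27%), in 0.358% of genes between and in 1 of 544 higher genes (0.184%). At 1 to 10 FPKM in controls, 1 of 248 lower genes (0.403%) held it, against 0.399% of genes between. At 10 to 100 FPKM these shares were 2.22% and 0.252%, and at 100 to 1000 FPKM 4.85% and 0.576%. Of the 17 lower genes, 9 were Cyp2c or Cyp3a copies, and without these copies 8 of 733 lower genes (1.09%) held it against 0.419% of all kept genes. *Cyp2c67*, *Cyp3a41a* and *Cyp3a41b* count at 10 to 100 FPKM. *Cyp2c40*, *Cyp2c68*, *Cyp2c69*, *Cyp2c70* and *Cyp3a16* count at 100 to 1000 FPKM. The shares by class were not computed without these copies. CAAAGGTCA was in 1.07% of lower, 0.324% of between and 0.735% of higher genes, and in 0.481% of all promoters. A match describes letters and does not show binding, and most lower genes had no match in this window.

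The 9 lower genes with CAAAGTCCA and 100 FPKM or more in controls are shown as 60 bases around the word, which is in capitals, each read 5′ to 3′ on the strand of the gene, because they let the tandem copies be compared with unrelated genes. In *Pipox* the word is on the other strand and therefore reads TGGACTTTG.
Aspdh: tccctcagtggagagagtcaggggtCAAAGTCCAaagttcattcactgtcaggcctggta
Cd302: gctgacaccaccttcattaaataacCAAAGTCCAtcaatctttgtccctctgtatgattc
Cyp2c40: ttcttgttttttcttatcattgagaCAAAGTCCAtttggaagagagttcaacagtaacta
Cyp2c68: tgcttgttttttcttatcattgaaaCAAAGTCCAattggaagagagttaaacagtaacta
Cyp2c69: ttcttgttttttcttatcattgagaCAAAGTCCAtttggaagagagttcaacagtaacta
Cyp2c70: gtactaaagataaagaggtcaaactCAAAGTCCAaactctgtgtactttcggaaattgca
Cyp3a11: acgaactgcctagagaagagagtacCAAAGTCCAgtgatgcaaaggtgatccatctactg
Cyp3a16: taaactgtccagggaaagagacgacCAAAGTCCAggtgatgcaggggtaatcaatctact
Pipox: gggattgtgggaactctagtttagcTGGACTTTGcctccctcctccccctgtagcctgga

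Their positions are chr7:44465358-44465417 (plus strand) for *Aspdh*, chr2:60284583-60284642 for *Cd302*, chr19:39812825-39812884 for *Cyp2c40*, chr19:39741144-39741203 for *Cyp2c68*, chr19:39886810-39886869 for *Cyp2c69*, chr19:40187316-40187375 for *Cyp2c70*, chr5:145879929-145879988 for *Cyp3a11*, chr5:145469788-145469847 for *Cyp3a16* and chr11:77893823-77893882 for *Pipox*, the last 8 on the minus strand. The word lies before the start in all but *Pipox*, where it begins after it. *Cyp2c40* and *Cyp2c69* share the same 60 bases and had ratios of −7.16 and −9.73, while *Cyp2c68*, a near copy with the same word, had −1.40 (191 and 72.4 FPKM). The Cyp3a pair parted as well, with *Cyp3a16* at −7.64 and *Cyp3a11*, the main drug-oxidising member, at −2.04 (1049 and 255 FPKM). *Aspdh*, which encodes an aspartate dehydrogenase domain protein, stood at 102 and 2.31 FPKM, *Pipox*, which oxidises pipecolate and sarcosine in peroxisomes, at 229.7 and 44.3, and *Cd302*, a C-type lectin, at 268 and 101. The word itself thus came with ratios from −9.73 to −1.40 among these lower genes.

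Bile acid synthesis was lower in 9 of 18 members and higher in 1, with a median of −1.28. *Cyp7a1*, the rate-limiting enzyme, stood at 235 FPKM in controls and 3.10 in cKO livers, and *Cyp8b1*, which sets the share of cholic acid, at 69.9 and 1.44. *Slc27a5*, which links bile acids to coenzyme A, was lower too, at 546 and 9.56. *Baat*, which then joins them to taurine and glycine, was lower at 170.0 and 4.26, and the uptake carrier *Slc10a1* less so, at 568 and 88.8. *Abcb11*, which pumps bile salts out of the hepatocyte, was the higher member at 154 and 369, and *Nr0b2*, the bile acid-induced repressor SHP, stood at 25.7 and 109. Other synthesis genes lay between, such as *Cyp27a1* at 248 and 204 and *Cyp39a1* at 38.8 and 59.2. Transporters of organic ions of the SLC22 and SLCO families were lower in 10 of 18 (median −1.95), with *Slco1a1* at 39.1 and 0.203. Of 4 kept aquaporins 3 were lower, *Aqp8* at 58.6 and 5.14 among them.

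Amino acid breakdown was lower in 29 of 58 members and higher in 1, with a median of −1.02, and its sum was 21267 FPKM in controls and 10297 in cKO livers. *Haao*, *Ido2* and *Kmo* of the kynurenine route of tryptophan stood at 470.4 and 6.22, 35.3 and 0.684, and 149 and 6.99, while *Tdo2* stood at 1082 and 1445 and *Kynu* at 87.5 and 82.5. *Tdo2* and *Ido2* both encode enzymes of the first step, and only the second, much the less abundant in controls, was lower. *Prodh2*, which oxidises hydroxyproline, stood at 198 and 5.29. In the urea cycle and ammonia group, 4 of 12 were lower and 0 higher, led by *Otc*, ornithine transcarbamylase, at 312 and 4.65. Of the other cycle enzymes, *Asl*, argininosuccinate lyase, was lower at 601 and 228, while *Cps1* stood at 1553 and 1669, *Ass1* at 393 and 376 and *Arg1* at 1674 and 2430.1, all between.

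Glucose and lipid genes were mostly lower or between. Gluconeogenesis and glycogen genes were lower in 10 of 23 and higher in 3 (median −0.91), with *G6pc*, glucose-6-phosphatase, at 322 FPKM in controls and 58.6 in cKO livers, *Pcx*, pyruvate carboxylase, at 174 and 27.3, and *Khk*, ketohexokinase, at 459 and 65.9. Fatty acid and triglyceride synthesis was lower in 11 of 24 and higher in 1 (median −0.69), with *Fads2*, a desaturase, at 325 and 17.0 and *Thrsp*, a regulator of lipogenesis, at 1166 and 169.6. The 1 higher gene was under 1 FPKM in controls and so was kept only through the cKO value. Fatty acid oxidation and ketogenesis had 2 of 24 lower, 2 higher and a median of −0.011, whose sign changes with the scale. The 2 higher genes of this group were also kept only through the cKO value, and of the other 22 members 0 were higher. The lowest member of the group, *Bdh1*, which makes the ketone body hydroxybutyrate, stood at 166 and 7.06. *Fgf21*, a fasting-induced hormone, stood at 0.576 and 7.04. Cholesterol synthesis was split, with 4 of 25 lower and 7 higher, among the latter *Hmgcs1* at 35.6 and 162.

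Apolipoproteins and lipid transfer genes were lower in 9 of 17 members and higher in 0, with a median of −1.38, and summed to 74656 FPKM in controls and 33753 in cKO livers. Beside *Apoa2*, the lowest were *Lipc*, hepatic lipase, at 175 and 6.9999 and *Apom*, which carries sphingosine 1-phosphate, at 469 and 21.1. *Apob*, the backbone of very-low-density lipoprotein, stood at 579 and 100.003, and *Mttp*, which loads it with lipid, at 104 and 19.6. *Apoa5*, *Apof* and *Pltp* were among the 8 between, at 742 and 789.7, 428 and 368, and 16.1 and 20.4.

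Complement and clotting genes held both very low and high members. Complement was lower in 15 of 29 and higher in 1 (median −1.27). *Mbl2*, a mannose-binding lectin, stood at 813 FPKM in controls and 13.1 in cKO livers, and *C9* and *C8g* of the membrane attack complex at 164 and 4.03 and at 487 and 16.1, while *C8b* of the same complex was the higher member at 78.3 and 183. Subunits of 1 complex thus had opposite calls. Coagulation and fibrinolysis genes were lower in 10 of 31 and higher in 1 (median −0.58), with *F12* at 351 and 11.7 and *F13b* at 164 and 5.45. The 3 fibrinogen genes kept high levels, *Fga* at 1814 and 2554 and *Fgg* at 2370.0 and 3493 beside *Fgb*, so the family sum was 17488 and 18639 FPKM although its median was negative. *Plat*, tissue plasminogen activator, was the higher member at 0.210 and 42.6. It was under 1 FPKM in controls and so was kept only through the cKO value, and of the other 30 members 0 were higher. Serpins were lower in 13 of 28 and higher in 1, *Serpina7*, which carries thyroid hormone in plasma, at 14.9 and 162. The other thyroid hormone carrier, *Ttr*, had the opposite call.

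Acute phase proteins, which the liver secretes in inflammation, were higher in 9 of 26 and lower in 6, with a median of 0.63. Beside *Hp*, the higher members were *Lcn2* at 23.6 FPKM in controls and 124 in cKO livers, *Orm2* at 20.04 and 75.3, *Lbp* at 58.6 and 199 and *Il1rn* at 1.28 and 13.7. The lower ones included *Serpina3k* and *Serpina3m*, at 478 and 22.9. *Lrg1*, a leucine-rich plasma glycoprotein, had the highest ratio in the 100 to 1000 class, at 194 and 1107. The list of inter-alpha-trypsin inhibitors, which bind hyaluronan, also held *Spp2*, a secreted phosphoprotein that is not one of them. Of its 7 genes 4 were higher and 1 was lower (median 1.09), with *Itih3* at 506 and 1821. The lower one was *Spp2*, at 285 and 6.09. Neutrophil markers were low in both groups, with *S100a8* at 1.45 and 17.5, *S100a9* at 1.81 and 17.3 and 11 entries summing to 4.13 and 40.2 FPKM. *Retnlg* stood at 0 and 3.40, *Csf3r* at 0.366 and 0.680, *Mmp8* at 0.0191 and 0.224 and *Cxcr2* at 0.0447 and 0.195, while *Mpo* and *Elane*, granule genes of neutrophil precursors, reached at most 0.138 FPKM. The share of such cells in the acute phase values was not tested.

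Chaperones and regulators of protein folding in the endoplasmic reticulum lay on the higher side. Of 27 genes of this unfolded protein response group, 18 were higher and 0 lower, with a median of 1.26 and sums of 3574 FPKM in controls and 8788 in cKO livers, and no member was under 1 FPKM in either group. Beside *Hspa5*, *Hsp90b1* stood at 504 and 1372, *Calr* at 413 and 990.1, *Sdf2l1* at 30.9 and 179.7, *Creld2* at 53.1 and 258 and *Derl3* at 1.03 and 14.1. The smallest ratio was that of *Derl2* at 33.4 and 37.9, so all 27 had the higher value in cKO livers. On the scale centred on ribosomal proteins the median was 0.82. Heat shock proteins had 3 of 17 lower and 0 higher.

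Targets of the stress factors ATF4 and CHOP were higher in 10 of 26 and lower in 2 (median 0.76), but 4 members were kept only through the cKO value, and of the 22 at 1 FPKM or more in controls 6 were higher. *Gdf15*, a stress-induced hormone, stood at 1.99 FPKM in controls and 124 in cKO livers and *Ddit3*, which encodes CHOP, at 13.7 and 46.7, while *Shmt2*, of mitochondrial one-carbon metabolism, stood at 118 and 10.8. Targets of p53 were higher in 11 of 28 and lower in 3 (median 0.79), with *Cdkn1a*, the cell cycle inhibitor p21, at 1.95 and 120.1, *Phlda3* at 0.864 and 13.01 and *Bax* at 23.9 and 65.8. Of these 28, 4 were kept only through the cKO value, *Phlda3* among them, and of the other 24 the higher ones numbered 7. *Perp*, of desmosomes, went the other way at 79.6 and 4.52. Immediate early genes, which respond within minutes to signals, were higher in 12 of 24 and lower in 1 (median 1.05), with *Egr1* at 1.35 and 28.2, *Gadd45b* at 2.16 and 36.7 and *Myc* at 1.104 and 6.62. Here 3 members were kept only through the cKO value, and of the other 21 the higher ones numbered 9. The 3 medians stayed above 0 on all 5 scales, and over all listed genes above 0 in both groups they were 0.83 for ATF4 and CHOP, 0.64 for p53 and 0.85 for immediate early genes.

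Mitosis genes had the highest family median, 2.48, with 18 of 20 kept members higher, but at low levels. Their sum was 13.9 FPKM in controls and 53.3 in cKO livers, and 15 of the 20 were under 1 FPKM in controls and so were kept only through the cKO value. Of the 5 at 1 FPKM or more in controls, 3 were higher. Over all 31 listed genes, with the 11 below the limit included, the median was 2.51. *Mad2l1*, of the spindle checkpoint, stood at 1.49 and 5.80, *Cdc20* at 0.379 and 4.93 and *Ccnb1*, cyclin B1, at 0.166 and 2.24. DNA replication genes were mixed, with 3 of 25 lower and 3 higher.

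Regulators were mostly between. The 22 transcription factors enriched in liver had 4 lower members and 1 higher, the lower ones including *Cebpa*, at 227 FPKM in controls and 38.2 in cKO livers, *Tbx3* at 8.83 and 4.12 and *Prox1* at 29.0 and 14.0. The higher one was *Hnf4g*, the close relative of *Hnf4a*, at 0.0788 and 1.11. It was under 1 FPKM in controls and so was kept only through the cKO value, and of the other 21 members 0 were higher. *Foxa1*, *Foxa2* and *Foxa3* stood at 7.91 and 6.30, 21.0 and 12.1, and 35.5 and 53.4. Nuclear receptors were lower in 8 of 34 and higher in 3 (median −0.57), with *Nr1i3*, the drug sensor CAR, at 161 and 2.75 and *Ppara*, the fatty acid sensor, at 52.6 and 7.48. The drug sensor *Nr1i2* (PXR) stood at 51.3 and 37.7, so the 2 drug sensors differed.

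Circadian clock genes were lower in 10 of 18 and higher in 5 (median −1.69). The outputs *Dbp* and *Tef* stood at 97.3 FPKM in controls and 1.44 in cKO livers and at 70.7 and 5.40, and the repressors *Ciart*, *Per2*, *Per3* and *Nr1d1* at 22.6 and 0.497, 13.8 and 2.55, 10.9 and 1.51, and 25.3 and 6.79. The activators *Arntl*, *Npas2* and *Clock* stood at 0.807 and 15.3, 0.0225 and 2.91, and 3.88 and 8.30. *Cry1* and *Nfil3*, both repressors, were higher too, at 6.59 and 16.1 and at 8.47 and 20.6, so repressors had calls in both directions. *Arntl* and *Npas2* were under 1 FPKM in controls and so were kept only through the cKO value. The hour of collection is not given in the sources used here.

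Growth hormone and zonation genes were next described. In the IGF axis *Igf1* stood at 210.3 FPKM in controls and 44.4 in cKO livers, the growth hormone receptor *Ghr* at 318 and 83.6, and *Igfbp1* at 15.5 and 86.2 beside *Igfbp2*. Of 15 members 5 were lower and 2 higher. Genes of hepatocytes near the central vein were lower in 12 of 19 and higher in 1 (median −1.38), and genes near the portal vein were lower in 9 of 17 and higher in 0 (median −1.07). *Cyp2e1* and *Cyp1a2* (574 and 43.2) had the lowest ratios of the first list and *Cyp2f2* (522 and 9.94) that of the second, so both ends of the lobule held low genes. The WNT targets *Axin2*, *Lgr5* and *Notum* stood at 3.33 and 2.73, 1.90 and 2.11, and 33.2 and 28.9.

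Genes with a known sex bias in mouse liver were low in both directions of bias. Transcripts of 4 Y-linked genes were listed at 0 in both groups and *Xist* stood at 62.0 and 119.5, as in female tissue. Of 20 kept female-biased genes 15 were lower and 0 higher (median −4.19), with *A1bg* at 46.4 FPKM in controls and 0.484 in cKO livers, *Hao2* at 60.1 and 0.244 and *Cyp2b13* at 188 and 2.05. Of 14 kept male-biased genes 9 were lower and 3 higher, among them *Slco1a1* and *Mup3* on one side and *Sult1e1* on the other.

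Core machinery gave a narrow spread. Of 77 mitochondrial ribosomal proteins 2 were lower and 0 higher, of 77 respiratory chain and ATP synthase subunits 0 and 2, and of 37 proteasome subunits 0 and 0, with medians of −0.08, −0.02 and −0.06. These medians take either sign with the scale. Cytosolic ribosomal proteins had a median of 0.45 with 1 of 79 higher (*Rpl26*, 28.9 and 59.3 FPKM) and 0 lower, and summed to 18601 and 25132, a median that is 0 by construction on the scale centred on them. The 248 kept genes named Zfp, mostly zinc finger proteins, had 9 lower (3.63%) and 12 higher (4.84%). Of the 248, 19 were kept only through the cKO value, and of the other 229 members 9 were lower and 7 higher. Reference genes used in PCR, such as *Actb* (189.8 and 211), *Gapdh* (265 and 311) and *Tbp* (6.75 and 6.42), had 0 of 15 called. Larger differences among them ran both ways. *Tfrc* stood at 11.2 and 19.5 and *Rplp0* at 255 and 419, while *Sdha* stood at 288 and 166 and *B2m* at 2666 and 1605.

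Markers of other liver cells were set beside these values. Of 13 Kupffer cell and macrophage markers, 12 lay between and 1 was higher, *Marco*, a scavenger receptor, at 3.91 FPKM in controls and 43.4 in cKO livers, and the list summed to 409 and 414. Of 14 sinusoidal endothelial markers 0 were called, with a median of −0.52, and of 13 stellate cell markers 3 were lower and 0 higher, with a median of −0.80. Cholangiocyte markers had 5 of 8 kept genes higher and 0 lower, with *Sox9* at 0.536 and 6.77, *Tspan8* at 0.519 and 9.21 and *Prom1* at 3.18 and 16.9, while *Krt19* stood at 0.9398 and 2.35 and *Cftr* at 0.0507 and 0.0583. *Spp1*, the most abundant of the list, stood at 26.0 and 21.2, and *Sox9*, *Tspan8* and *Krt19* were kept only through the cKO value. Pancreatic acinar genes, not expected in liver, were present in both groups, at up to 21.3 FPKM in controls (*Cela1*) and 10.3 in cKO livers (*Ctrb1*), and 6 of 11 were lower. The hepatocyte list itself, with *Hnf4a* in it, was lower in 8 of 17 and higher in 0, so the samples show hepatocyte RNA in both groups while its composition differed.

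Some of the highest ratios in the control classes from 1 to 1000 FPKM belonged to genes not named above. In the 1 to 10 FPKM class *Ly6d*, a surface antigen, had the highest ratio, at 1.05 FPKM in controls and 79.2 in cKO livers. In the 10 to 100 class *Acot1*, an acyl-CoA thioesterase, stood at 19.8 and 243 and *Cd9*, a tetraspanin, at 15.0 and 122. In the 100 to 1000 class *Plin2*, which coats lipid droplets, stood at 155 and 659. At the other end, *Upp2*, uridine phosphorylase of liver, stood at 522 and 4.89, *Car3*, carbonic anhydrase 3, at 1193 and 24.8, and *Aadat*, an aminotransferase of the kynurenine and lysine routes, at 65.9 and 1.26. Another 18 genes were listed at 0 in controls, with the highest cKO values for *Obp2a* at 20.1, *Snora64* at 19.3, *Kcnk16* at 15.4 and *Reg3b* at 14.2, and 7 were listed at 0 in cKO livers. No ratio is given for these.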

How the data were processed

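Per the labels and methods, livers of 3 control and 3 *Hnf4a* cKO mice were sequenced. The authors aligned reads to mm10 and deposited FPKM values; the submitters' processing notes name STAR 2.5.0b and Cufflinks 2.2.1. Not given in the sources used here are the gene annotation, the strand setting and any scaling of one library to another, so antisense and overlapping genes are uncertain. The deposited table also holds 5 columns of the authors' comparison (log2 fold change, test statistic, p-value, q-value and a call), which were not used. Its status column names 12208 entries as OK, 12131 as not tested and 1 as too low in data. Sums and ranks use kept entries unless all entries are named.

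Log2 ratios were computed from the FPKM without a pseudocount, and counted with numpy 2.4.6 and pandas 2.3.3. FPKM is relative, so abundant genes that lose reads raise others. Only the ratios and the 2-fold calls were tested on simulated data, with little noise added. Genes named were *Hnf4a*, the 4 lowest and 4 highest ratios per control class from 1 FPKM up (both groups at 1 FPKM or above), the 10 largest losses and gains, the 20 highest per group, up to 3 members per family with 5 FPKM or more, and marker genes. Other members named were picked after their values were seen. Members, families and lists were chosen with earlier results of these data known. Gene positions and promoters are from RefSeq (GRCm38.p6), runs of neighbours from the loci in the table. A few items that this rule names are not reported here.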

Additional observations from a re-analysis of the deposited data

How the results depend on the processing

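No paired analysis was possible because the table holds 1 pooled FPKM per group, and for the same reason no liver could be left out. Against 1247 lower and 909 higher genes, a log2 threshold of 0.5 gave 2513 and 2153 and one of 2 gave 514 and 320. Higher genes numbered 586 with a pseudocount of 1, 469 at 5 FPKM or more in either group and 531 at 1 FPKM or more in both, with lower genes within 1.5 times. Equal sums gave 816 and 1751, centring on ribosomal proteins 2304 and 523, and equal sums outside the 100 highest (added after seeing the data) 1427 higher. Of 35 lower genes at 1000 FPKM or more in controls, 19 passed a log2 threshold of 2, and the class by cKO FPKM held 7 and by mean FPKM 17. Of 265 at 100 to 1000 FPKM, 152 passed that threshold, and the class by cKO FPKM held 65. The median of the class under 1 FPKM changed sign from 1.56 by control to −1.42 by cKO FPKM, as the limit of 1 FPKM in either group requires. Of 264 named genes, 255 kept 1 sign and 200 kept 1 call on all 5 scales. A pseudocount of 0.1, no filter, centring on the median and leaving out noncoding and shared entries kept both counts within 1.5 times. Shares of summed FPKM in the 10 and 100 highest genes moved by less than 1% of their value when summed over all entries. FPKM without counts sets no limit by depth, and values near 0 are least certain.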

Other observations

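The 321 kept genes of the X chromosome with a ratio had 15 lower members (4.67%), 39 higher and a median of 0.21 (log2), while the medians of the 19 autosomes ran from −0.079 to 0.031 and their shares of lower genes from 8.76% to 14.0%. The X median is below 0 on the scale centred on ribosomal proteins, which moves every ratio by −0.45. Long noncoding RNAs were called more often than protein-coding genes in both directions. Of 224, 36 were lower (16.1%) and 46 higher (20.5%), against 10.9% and 7.81% of 10905 protein-coding genes. The higher counts include any genes under 1 FPKM in controls, which were kept only through the cKO value. Many long noncoding RNAs lie near or across other genes, and without the strand setting their reads cannot be separated from those of a neighbour. Lower genes had a median control FPKM of 21.4 and higher genes one of 1.47.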
